A study of Mus musculus with 13 samples.

Results

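The 10 genes described here are Psmb8, Psmb9 and Psmb10 (catalytic subunits of the immunoproteasome), Tap1 and Tap2 (the peptide transporter), Nlrc5 (the transactivator of class I genes), Irf1 (an interferon regulatory transcription factor), and Gbp7, Cxcl10 and Ifi44 (interferon-inducible effectors). They were taken by symbol and joined by Ensembl identifier across both deposited tables. All 10 were found among the 21420 identifiers that both tables list, of 25183 listed in either. The choice used no measured value of these libraries, but it was made with earlier results on the same libraries known.

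Libraries of polyadenylated RNA came from mouse small intestinal crypts, the epithelial pockets that hold stem and Paneth cells, and from organoids, the epithelial cultures grown from them. The groups were Eed KO crypts (genotype Eed-/-, n = 3), Ezh2 KO crypts (Ezh2-/-, n = 3), WT crypts (n = 3), Eed KO organoids (Eed-/-, n = 2) and WT organoids (n = 2). Every crypt donor had beta-naphthoflavone for 6 weeks before harvest at an age of 12 weeks, and every organoid culture had the same compound for 10 days. Beta-naphthoflavone switches on AhCre, a recombinase under an aryl hydrocarbon-responsive promoter that acts in the intestinal epithelium and liver. AhCre is named in the descriptions of the organoids, the WT ones included, and of the run 440 crypts. The crypts were labelled with a C57BL/6-FVB mixed background, the Eed KO organoids C57BL/6-FVB and the WT organoids FVB, so strain and genotype cannot be told apart in the organoids. The labels do not state that replicate libraries are from different mice or cultures. The p-values thus set group differences only against the spread among these libraries, and that spread may be technical. Eed and Ezh2 encode the core subunit and the main methyltransferase of Polycomb repressive complex 2, which deposits the repressive mark H3K27me3.

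The standard proteasome cuts cytosolic proteins with the catalytic subunits encoded by Psmb5, Psmb6 and Psmb7. Under interferon gamma, cells make Psmb8, Psmb9 and Psmb10 in their place, and the resulting immunoproteasome yields peptides that bind class I molecules well. The Tap1 and Tap2 proteins carry these peptides into the endoplasmic reticulum, where they meet class I heavy chains and beta-2-microglobulin, and NLRC5 drives transcription of most genes of this route. IRF1 acts downstream of the interferon receptors, and the intestinal epithelium uses the same receptors to answer signals from mucosal lymphocytes.

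Total counts per library ranged from 11421666 to 18300644. Run 385 held 8 libraries and run 440 held 5, and Eed KO and WT crypts were in both runs, so run was a term in the fits. Libraries are named by group, run and title number. Eed had 15.9, 25.04 and 16.3 CPM (counts scaled to a common library size) in Eed KO crypts, against 53.1, 60.3 and 50.1 CPM in WT crypts, and 19.2 and 30.5 CPM in Eed KO organoids, against 73.5 and 62.4 CPM in WT organoids. Ezh2 had 21.8, 17.7 and 18.0 CPM in Ezh2 KO crypts, against 90.8, 95.3 and 72.2 CPM in WT crypts. Each targeted gene was lower in every library labelled as its knockout, and RNA remained in all of them. Epcam, the epithelial adhesion marker, was above 750 CPM in every library, and Cd3e, which marks T cells, had counts in all crypt libraries and none in organoids.

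Libraries differed in other genes of the major histocompatibility complex in a way that followed neither genotype nor run, and Psmb8, Psmb9, Tap1 and Tap2 lie in that complex. H2-T22, a non-classical class I gene chosen after its values were seen, had 36.6, 40.02 and 51.6 CPM in Eed KO crypts, 2.69, 3.24 and 4.04 CPM in Ezh2 KO crypts, and 26.2, 31.2 and 4.84 CPM in WT crypts 385_1, 385_2 and 440_1. In organoids it had 14.6 and 24.7 CPM in the Eed KO, against 0.978 and 1.37 CPM in the FVB-labelled WT. H2-T23, likewise chosen afterwards, was low in the same 6 libraries as H2-T22 when crypts and organoids are each compared among themselves. H2-D1, a classical class I heavy chain, had 522, 414 and 800 CPM in Eed KO crypts, 1424, 1175 and 1274 CPM in Ezh2 KO crypts, and 272, 373 and 1721 CPM in WT crypts 385_1, 385_2 and 440_1. WT crypt 440_1 thus sat with the Ezh2 KO crypts, and the WT crypts of run 385 sat with the Eed KO crypts. Which copy of the complex each library carries was not tested. Within run 385 the Eed KO and WT crypts shared the high H2-T22 and H2-T23, and in run 440 they did not, so within-run values stand beside the pooled ones below.

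Sex-linked genes divided the libraries as well. Ddx3y, a gene of the Y chromosome, had 0, 0.0846 and 0 CPM in Eed KO crypts, 0 CPM in all 3 Ezh2 KO crypts, and 35.6, 57.5 and 0 CPM in WT crypts 385_1, 385_2 and 440_1. In organoids it had 47.6 and 50.9 CPM in the Eed KO, against 0.0752 and 0 CPM in the WT. Xist, the RNA of the inactive X chromosome, was at 289 to 3471 CPM in Eed KO crypts and at 2.67, 2.75 and 1622 CPM in WT crypts, in the same library order. Sex and genotype thus cannot be told apart within run 385 or in the organoids. In run 440 all crypt libraries were at 0 for Ddx3y, but there the Eed KO and WT crypts differed in H2-T22 and H2-D1, so neither run gives a comparison matched in both respects.

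**Figure D1:**
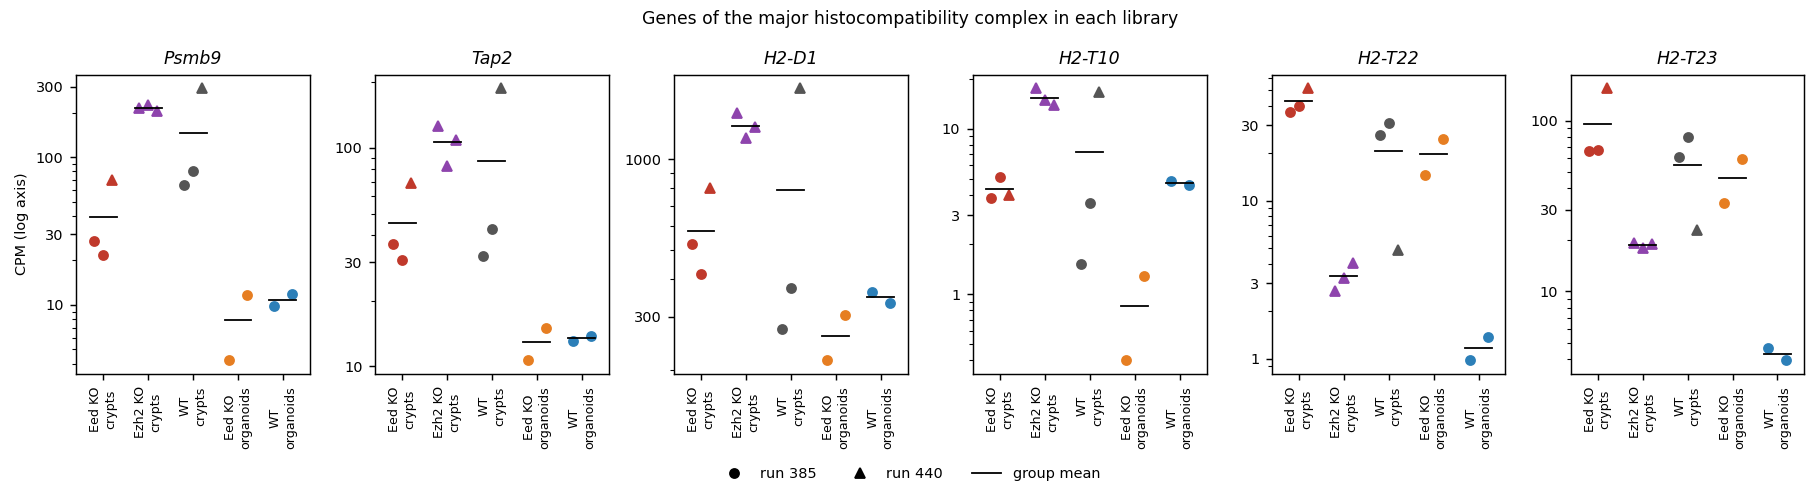
Level of 6 genes of the major histocompatibility complex in each library, in CPM on a log axis, by group (circles, run 385; triangles, run 440; lines, group means). WT crypt 440_1 lies near the Ezh2 KO crypts for H2-D1, H2-T10, H2-T22 and H2-T23, and WT organoids are low in H2-T22 and H2-T23.

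The files place Psmb9, Tap1, Psmb8 and Tap2 side by side on GRCm38 at chr17:34181988-34216321, all protein-coding. Psmb10 is at chr8:105935728-105938392, Nlrc5 at chr8:94472763-94527272, Gbp7 at chr3:142530338-142550083, Ifi44 at chr3:151730922-151749947, Irf1 at chr11:53770014-53778374 and Cxcl10 at chr5:92346638-92348889. Psmb9 and Tap1 are read in opposite directions from starts only 225 bases apart, per RefSeq on GRCm38.p6. The stretch between those starts, chr17:34187331-34187555, is shown because the paired genes did not move to the same extent (below). It is written on the plus strand, that of Tap1, and none of the motifs searched is in it:
Tap1 and Psmb9: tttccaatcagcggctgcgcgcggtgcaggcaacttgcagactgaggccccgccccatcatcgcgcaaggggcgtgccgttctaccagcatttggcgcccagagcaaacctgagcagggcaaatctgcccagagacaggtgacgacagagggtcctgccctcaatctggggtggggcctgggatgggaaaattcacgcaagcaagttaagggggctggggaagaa

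Of the 10 genes, 8 had a RefSeq promoter window of 300 bases, 250 before and 50 after the start. The interferon-stimulated response element was searched on both strands as a pair of GAAA blocks at 3 spacings, GAAANGAAA, GAAANNGAAA and GAAANNNGAAA, which 3.17%, 3.44% and 2.75% of all 32851 windows hold. The middle spacing matched in Gbp7 and Cxcl10, the other spacings both matched in Ifi44, where the matches overlap, and the widest also matched in Psmb8. The gamma-activated sequence TTCNNNGAA, held by 8.3% of windows, matched in Irf1, Psmb8 and Gbp7, and the NF-kappaB-like GGGNNNTTCC, held by 5.56%, matched at 2 places in Cxcl10. No match of these motifs was in the windows of Psmb9, Tap1 or Psmb10. The stretches of the 3 effector genes are shown because these genes were nearly silent in WT organoids and present in Eed KO organoids. They are chr3:142530258-142530317 (plus strand), chr3:151749928-151749987 (minus) and chr5:92349068-92349127 (minus), each 60 bases on the strand of its gene, with matches to the GAAA pairs in capitals. A match describes the letters and shows no binding.
Gbp7: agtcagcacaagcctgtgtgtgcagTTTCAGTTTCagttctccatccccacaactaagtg
Ifi44: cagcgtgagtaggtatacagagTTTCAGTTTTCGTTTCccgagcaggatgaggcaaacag
Cxcl10: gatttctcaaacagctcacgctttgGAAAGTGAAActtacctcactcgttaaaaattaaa

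In crypts, Eed KO libraries had lower immunoproteasome RNA and higher Ifi44 than WT libraries. Psmb8, Psmb9, Psmb10, Tap1 and Irf1 fell, Ifi44 rose, and Tap2, Nlrc5, Gbp7 and Cxcl10 did not pass the test. The calls are 5 lower and 1 higher of 10, where 10.6% of the 14406 genes tested were called lower and 13.4% higher by edgeR's quasi-likelihood test at an adjusted p under 0.05. The median log2 fold change was -0.74 over the 10 genes and -0.04 over all genes tested.

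Psmb8 encodes the subunit that replaces Psmb5 and cuts after hydrophobic residues. It had 49.1, 37.7 and 89.0 CPM in Eed KO crypts 385_1, 385_2 and 440_1, against 118, 149 and 396 CPM in WT crypts 385_1, 385_2 and 440_1. Every Eed KO library lay below every WT library, although levels in run 440 were higher in both groups. The log2 fold change was -1.80 ± 0.18 (SE; adjusted p = 0.000368), and it was -1.65 within run 385 and -2.02 within run 440. Both within-run values kept the call, with adjusted p of 0.00132 and 0.00773.

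Psmb9, which takes the place of Psmb6, had 27.0, 21.7 and 70.0 CPM in Eed KO crypts, against 65.1, 80.2 and 293 CPM in WT crypts, in the same library order. The groups overlapped only through the run 440 Eed KO library, which was above WT 385_1 and far below the WT library of its own run. Psmb9 differed by -1.74 ± 0.17 on the log2 scale (adjusted p = 0.00034), with -1.61 within run 385 and -1.94 within run 440, both called.

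Psmb10, the counterpart of Psmb7, lies on chromosome 8 and so outside the major histocompatibility complex. It had 50.7, 46.5 and 128 CPM in Eed KO crypts, against 126, 122 and 207 CPM in WT crypts. Only the run 440 Eed KO library reached the WT range, and it was below the WT library of its own run. The difference of -1.12 ± 0.16 on the log2 scale (adjusted p = 0.00161) was -1.38 within run 385, which was called. Within run 440, with a single library a group, it was -0.56 and not called (adjusted p = 0.144).

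**Figure D2:**
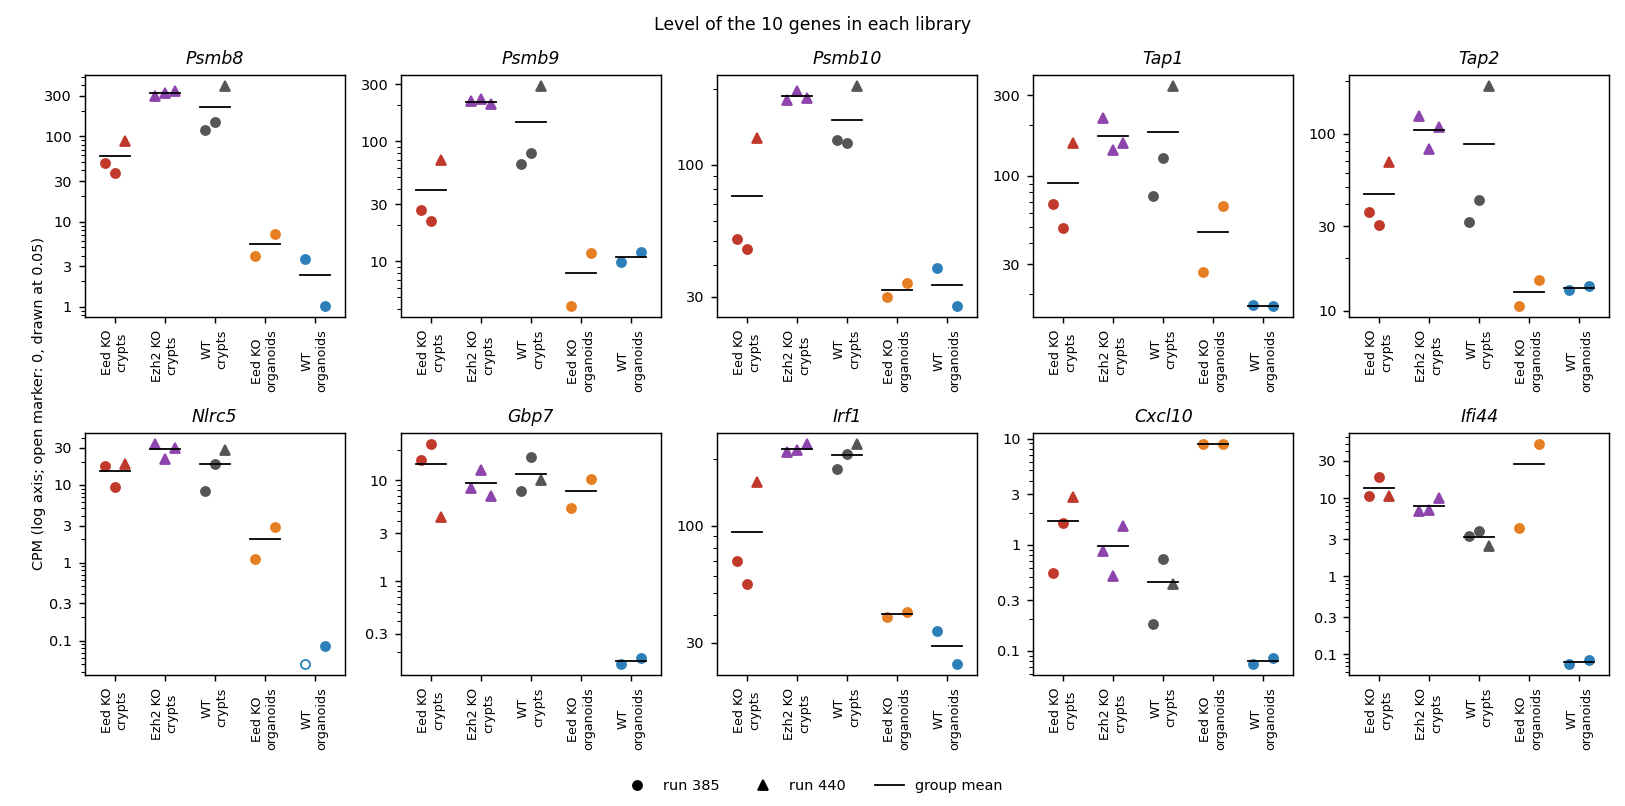
Level of each of the 10 genes in every library, in CPM on a log axis, by group (circles, run 385; triangles, run 440; lines, group means; an open marker is a count of 0). Psmb8 and Psmb9 are low in Eed KO crypts within each run, and Nlrc5, Gbp7, Cxcl10 and Ifi44 lie between 0 and 0.172 CPM in WT organoids.

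No standard subunit passed the test. Psmb5 had 53.4, 58.5 and 81.3 CPM in Eed KO crypts, against 49.8, 50.6 and 78.5 CPM in WT crypts. Its log2 fold change was 0.13 ± 0.12, that of Psmb6 was -0.10 ± 0.15 and that of Psmb7 was -0.12 ± 0.15, none of them called. None of the 14 genes for standard 20S subunits passed the test in any of the 6 comparisons, and their median in Eed KO against WT crypts was -0.16. Of 10 genes for proteasome regulators and assembly factors, the PA28 subunits Psme1 (log2 fold change -0.63 ± 0.14, adjusted p = 0.0126) and Psme2 (-0.81 ± 0.15, adjusted p = 0.00517) fell and none rose. PA28 is the interferon-inducible cap of the 20S core. Over all genes tested, 10.6% were called lower in this comparison.

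Because levels of different genes can be set against each other only per length, ratios were taken between RPKM, the CPM per kilobase, over the union of exons. The ratio of Psmb8 to Psmb5 was 0.244, 0.172 and 0.291 in Eed KO crypts, 1.18, 1.13 and 1.22 in Ezh2 KO crypts, and 0.632, 0.784 and 1.34 in WT crypts. The ratio of Psmb10 to Psmb7 was 1.17, 0.867 and 1.99 in Eed KO crypts, 2.66, 2.32 and 2.57 in Ezh2 KO crypts, and 2.47, 2.55 and 2.54 in WT crypts. In both ratios all 3 Eed KO crypts were below all other crypts. Both ratios rest on the lengths used, and with the longest transcript in place of the union the Psmb8 to Psmb5 ratio was 0.433, 0.304 and 0.516 in Eed KO crypts and 1.12, 1.39 and 2.38 in WT crypts.

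Tap1 had 68.4, 48.8 and 156 CPM in Eed KO crypts, against 75.5, 127 and 342 CPM in WT crypts. Each Eed KO library was lower than the WT library of the same run and number, but the groups overlapped. The log2 fold change of -0.90 ± 0.26 just passed (adjusted p = 0.034). It was -0.81 within run 385 and -1.0 within run 440, not called in either (adjusted p = 0.0701 and 0.103), and the call was lost when same-numbered libraries were paired (adjusted p = 0.127). It was also lost when Eed KO crypt 385_2 or 440_1, or WT crypt 385_2 or 440_1, was left out, with values between -0.86 and -0.71.

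Tap2, the other chain of the transporter, had 36.4, 30.7 and 69.3 CPM in Eed KO crypts, against 32.0, 42.4 and 187 CPM in WT crypts. Its log2 fold change of -0.58 ± 0.29 did not pass (adjusted p = 0.19). The value was -0.17 within run 385 and -1.31 within run 440, where it passed (adjusted p = 0.0499), and it was in run 440 that H2-T22 and H2-D1 differed between these libraries.

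The ratio between the RNAs of Psmb9 and Tap1, which start back to back, differed among the groups. Psmb9 over Tap1, in RPKM, was 0.589, 0.664 and 0.670 in Eed KO crypts, 1.46, 2.38 and 1.94 in Ezh2 KO crypts, and 1.29, 0.946 and 1.28 in WT crypts. In organoids it was 0.235 and 0.262 in the Eed KO, against 0.860 and 1.04 in the WT. The ratio was lower in every Eed KO library than in any WT library of the same material, and the groups did not overlap. By the deposited positions the genes overlap by 212 bases, and GENCODE M21 places them on opposite strands. No source used here says if strand was used in counting.

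**Figure D3:**
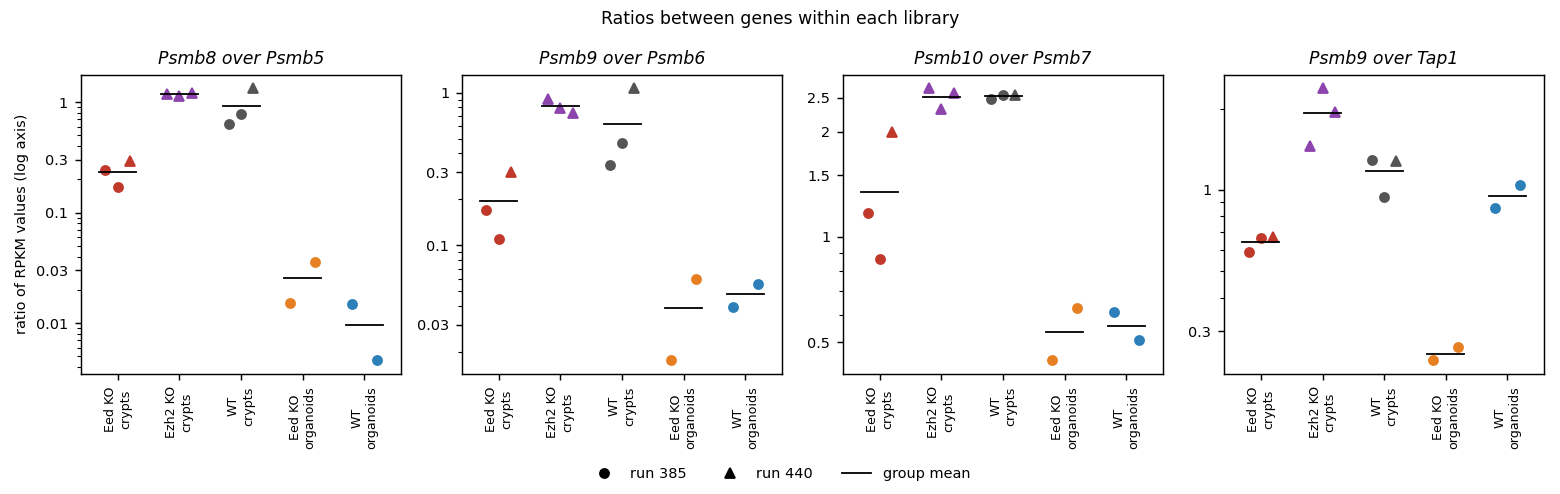
Ratios of RPKM values within each library on a log axis: each immunoproteasome subunit over its standard counterpart, and Psmb9 over Tap1 (circles, run 385; triangles, run 440; lines, group means). Eed KO crypts are the lowest of the crypt groups in all 4 ratios.

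Of the regulators, Irf1 had 69.5, 55.2 and 157 CPM in Eed KO crypts, against 181, 209 and 233 CPM in WT crypts, with no overlap. Its log2 fold change was -1.28 ± 0.23 (adjusted p = 0.00414). The fall was large within run 385 at -1.67 (adjusted p = 0.000925) and was not called within run 440 at -0.44 (adjusted p = 0.226) or with same-numbered libraries paired (-1.30, adjusted p = 0.0587). Nlrc5 had 17.4, 9.31 and 18.5 CPM in Eed KO crypts, against 8.37, 18.4 and 28.4 CPM in WT crypts, and the groups overlapped fully (log2 fold change -0.21 ± 0.35, adjusted p = 0.712). Psmb8, Psmb9 and Irf1 thus passed where the class I transactivator did not, although a p that misses the threshold does not show an equal level.

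Ifi44, an interferon-induced protein with antiviral activity in cell culture, moved the other way. It had 10.6, 18.6 and 10.7 CPM in Eed KO crypts, against 3.29, 3.76 and 2.45 CPM in WT crypts. All Eed KO libraries exceeded all WT libraries, and unlike Psmb8 the gene was at a like level in both runs. The log2 fold change was 2.08 ± 0.29 (adjusted p = 0.00145), 2.01 within run 385 and 2.25 within run 440, both called.

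Cxcl10, the chemokine that draws CXCR3-bearing T cells, had 7, 19 and 48 counts in Eed KO crypts, against 2, 8 and 7 counts in WT crypts. Its log2 fold change of 1.80 ± 0.70 did not pass (adjusted p = 0.101). Cxcl10 lies wholly within Art3 on the opposite strand, and Art3 had 66, 74 and 71 counts in Eed KO crypts, against 0, 1 and 1 in WT crypts. This overlap is of whole gene spans, and whether their exons overlap was not tested. If counting ignored strand, reads from any shared exon cannot be told apart here. Gbp7, a guanylate-binding GTPase, had 15.9, 23.2 and 4.29 CPM in Eed KO crypts, against 7.83, 17.2 and 10.1 CPM in WT crypts, and its log2 fold change of 0.06 ± 0.47 (adjusted p = 0.945) changed sign between runs, with 0.61 within run 385 and -1.10 within run 440.

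**Figure D4:**
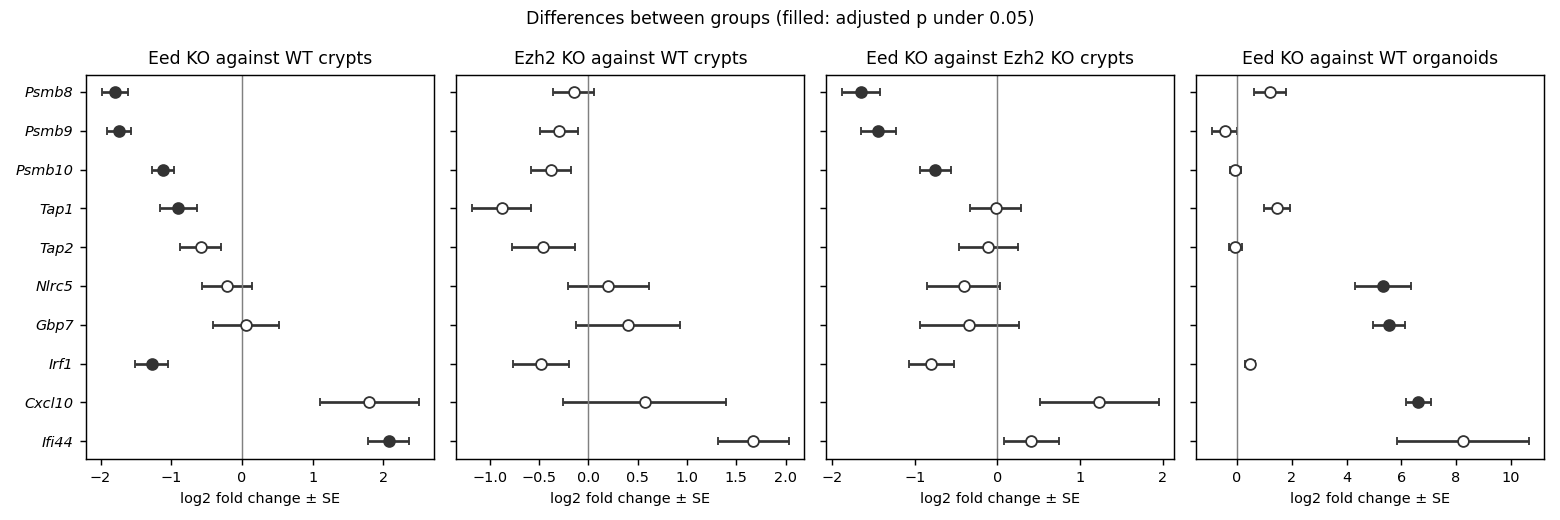
Log2 fold change of the 10 genes with its SE in 4 comparisons (filled markers: adjusted p under 0.05; each panel has its own scale). Psmb8, Psmb9 and Psmb10 are lower in Eed KO crypts than in both other crypt groups, and Nlrc5, Gbp7 and Cxcl10 are higher in Eed KO than in WT organoids.

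Genes of the same route were tested beside the 10 in Eed KO against WT crypts, where 13.4% of all genes tested were called higher and 10.6% lower. Of 21 class I and peptide-loading genes, 5 fell and none rose, namely Erap1, which trims peptides in the endoplasmic reticulum (-1.44 ± 0.31), Tapbpl, a peptide editor (-1.13 ± 0.14), H2-T3 (-1.11 ± 0.29), H2-Q2 (-1.03 ± 0.27) and H2-Q4 (-0.87 ± 0.21). The main classical chains did not pass, with H2-K1 at 0.46 ± 0.22, H2-D1 at 0.01 ± 0.33 and B2m at -0.27 ± 0.18. The value of H2-D1 joins runs that went opposite ways. By the CPM given above, Eed KO crypts exceeded WT crypts in run 385 and were below the WT crypt in run 440. The list's median of -0.09 was close to that of all genes. Tgtp2 (-2.14 ± 0.41) and Igtp (-0.69 ± 0.19), interferon gamma-inducible immunity-related GTPases, fell, and Gbp3 (1.05 ± 0.30) rose, among 14 such GTPases tested. With same-numbered libraries paired, 1 gene of the class I list and 1 of the GTPases remained called, both lower. The median of the GTPases was 0.02 over both runs but changed sign between them, with 0.79 within run 385 and -0.98 within run 440. That of the class I list was -0.05 within run 385 and -0.35 within run 440.

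Of 45 other interferon-stimulated genes tested, 16 rose and 2 fell, with a median log2 fold change of 0.86. Of all genes tested, 13.4% were called higher and 10.6% lower. Ifit1 (2.87 ± 0.42, adjusted p = 0.0018), an inhibitor of viral RNA translation, had 8.36, 22.6 and 20.7 CPM in Eed KO crypts, against 2.14, 1.93 and 3.06 CPM in WT crypts. Rsad2, which encodes viperin (2.49 ± 0.46), Isg20, an exonuclease (2.31 ± 0.55), and Ifit1bl1 (2.31 ± 0.46) rose as well. Ifi47 (-1.11 ± 0.23), another immunity-related GTPase, and Ifit2 (-1.08 ± 0.33) fell. The count of higher genes was 16 within run 385, 11 within run 440, 13 without WT crypt 440_1 and 7 with same-numbered libraries paired. The count of lower genes was 4, 0, 3 and 1 under the same 4 alternatives.

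Among 21 interferon receptor and signalling genes, 2 rose, Irf7 (1.46 ± 0.31) and Usp18 (1.58 ± 0.44), and 3 fell, among them Ifngr1 (-0.99 ± 0.14) and Irf8 (-0.43 ± 0.13). Over all genes tested, 13.4% were called higher and 10.6% lower, so the small counts of this list and the next are a description only. Ifngr1 encodes the ligand-binding chain of the interferon gamma receptor, and it had 54.1, 58.6 and 84.5 CPM in Eed KO crypts, against 111, 127 and 150 CPM in WT crypts, without overlap. With same-numbered libraries paired, none of this list was called higher and 1 lower. Of 8 cofactors of class I regulation, Rfx5 rose (0.57 ± 0.14) and Ciita, the class II transactivator, fell (-1.33 ± 0.22). Of the interferon ligand list, Il18, a cytokine that evokes interferon gamma, was the 1 gene tested, and it rose (1.38 ± 0.29). Ifng itself was at or below 0.19 CPM in every library.

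**Figure D5:**
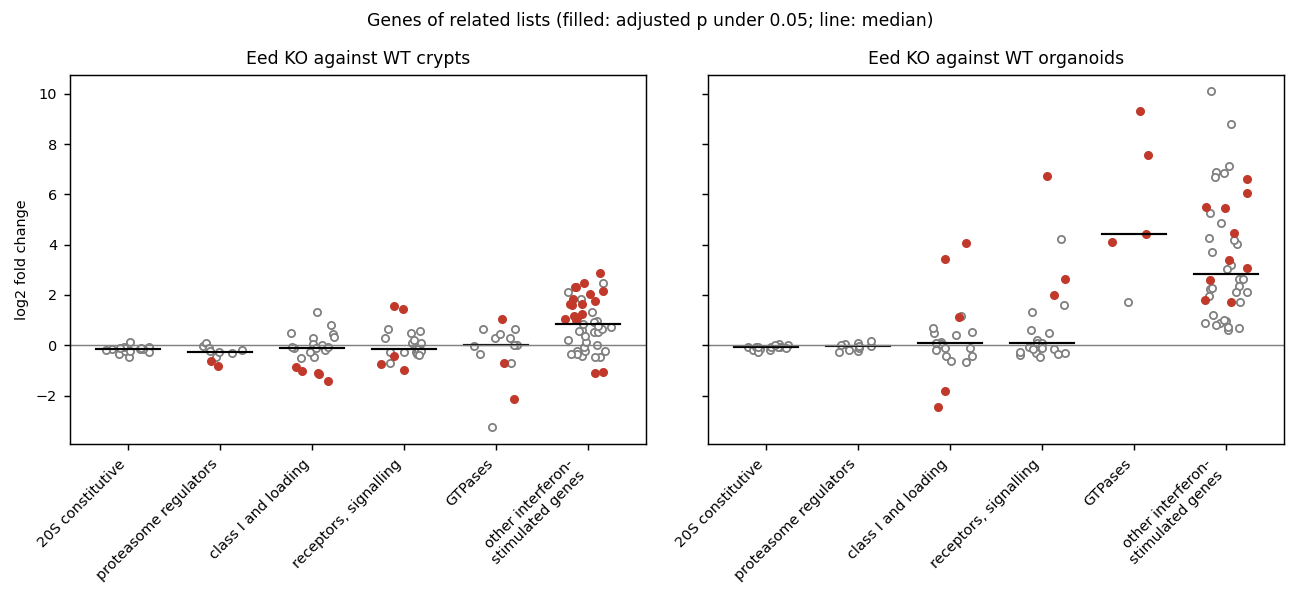
Log2 fold changes of 6 lists of related genes in Eed KO against WT crypts and in Eed KO against WT organoids (points, genes; filled, adjusted p under 0.05; lines, medians). The 14 standard 20S subunits stay near 0 in both, and the interferon-stimulated genes have medians of 0.86 in crypts and 2.84 in organoids.

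Cell type markers were set beside these differences in crypts, and the immune sums of Eed KO and WT crypts overlapped only through the libraries of run 440. The summed level of 20 immune markers, none of them at 0 in any crypt library, was 90.2 to 119 CPM in Ezh2 KO crypts. It was 296, 250 and 151 CPM in Eed KO crypts, against 140, 144 and 160 CPM in WT crypts, each in the order 385_1, 385_2 and 440_1. Within run 385 both Eed KO sums were thus above both WT sums. Of the 20, Itgax (1.92 ± 0.38), Tyrobp (1.76 ± 0.54), Laptm5 (1.35 ± 0.23) and Itgae (0.85 ± 0.27), genes of myeloid and intraepithelial immune cells, rose in Eed KO against WT crypts and Itgam (-0.98 ± 0.31) fell. In that comparison 13.4% of all genes tested were called higher and 10.6% lower. Ptprc, the pan-leukocyte marker, had 63.9, 55.5 and 4.52 CPM in Eed KO crypts, against 23.6, 20.8 and 14.1 CPM in WT crypts, and was not called. The summed level of 8 crypt base markers was 9920 to 15800 CPM in Eed KO crypts, 25300 to 43900 CPM in Ezh2 KO crypts and 63200 to 80000 CPM in WT crypts. Villus enterocyte markers summed to 4330 to 8420 CPM in Ezh2 KO crypts. In the library order above, they summed to 1030, 970 and 4760 CPM in Eed KO crypts, against 2820, 1660 and 3570 CPM in WT crypts. Eed KO crypts were thus lower than WT crypts in run 385 and higher in run 440. The sum of 12 stromal and endothelial markers was 147, 295 and 112 CPM in Eed KO crypts, 348, 118 and 332 CPM in Ezh2 KO crypts, and 44.1, 149 and 649 CPM in WT crypts, and none of the 11 tested was called between Eed KO and WT crypts. Its highest value was in WT crypt 440_1, the single WT library behind the values within run 440. The sum of 7 epithelial markers was 4840, 4410 and 8390 CPM in Eed KO crypts, against 7060, 6070 and 7620 CPM in WT crypts, with overlap. Of the 7, 2 were called lower, Epcam (-0.71 ± 0.14) and Cdx2 (-2 ± 0.34), and 0 higher. In bulk RNA, fewer cells of a type and less RNA per cell cannot be told apart, and the part of these markers in the falls of Psmb8, Psmb9, Psmb10, Tap1 and Irf1 and in the rise of Ifi44 was not tested.

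Ezh2 KO crypts, set against WT crypts, gave no call among the 10 genes. Of all genes tested, 0.00% were called higher and 0.0208% lower, and 1179 of 14406 had an unadjusted p under 0.05. Psmb8 had 297, 323 and 338 CPM in Ezh2 KO crypts, against 396 CPM in WT crypt 440_1, the WT library of the same run, and Psmb9 had 216, 225 and 204 CPM against 293 CPM. Their log2 fold changes were -0.15 ± 0.21 and -0.30 ± 0.19. Without WT crypt 440_1 these 2 values were 0.22 and 0.04, so their sign rested on that library. Run 440 then holds no WT crypt, and the run term of the fit rests on the Eed KO crypts alone. Irf1 had 214, 217 and 231 CPM in Ezh2 KO crypts, against 181, 209 and 233 CPM in WT crypts. The difference was -0.48 ± 0.28 once run was in the fit. Without WT crypt 440_1 it was -1.16 and passed (adjusted p = 0.0493), but the CPM ranges overlap and this value depends on the run term from the Eed KO crypts.

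Ifi44 was the gene of the 10 furthest from WT in Ezh2 KO crypts. It had 6.81, 7.04 and 10.1 CPM in Ezh2 KO crypts, against 3.29, 3.76 and 2.45 CPM in WT crypts, with all Ezh2 KO libraries above all WT libraries. The log2 fold change of 1.67 ± 0.36 did not pass with edgeR (adjusted p = 0.551) and passed with DESeq2 (1.66, adjusted p = 0.0125), which called 70 genes in all. None of the 45 other interferon-stimulated genes passed with edgeR, and their median was 0.44.

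Set directly against Ezh2 KO crypts, Eed KO crypts were lower in the 3 immunoproteasome subunits. The calls were 0 higher and 3 lower of 10, where 12.0% and 8.05% of all genes were called. Psmb8 differed by -1.65 ± 0.23 (adjusted p = 0.00224) and Psmb9 by -1.44 ± 0.21 (adjusted p = 0.00281), and within run 440 the values were -1.76 and -1.53, both called. The difference of Psmb10, -0.75 ± 0.19 (adjusted p = 0.0273), was -0.46 and not called within run 440 (adjusted p = 0.115). It also lost its call without Eed KO crypt 385_1, without any single Ezh2 KO crypt and without any single WT crypt, with adjusted p of 0.0522 to 0.129. Irf1 at -0.80 ± 0.27 (adjusted p = 0.0651) did not pass, and it passed without Eed KO crypt 440_1 (-1.68, adjusted p = 0.00562). In that fit the run term rests on the WT crypts alone. Tap1 at -0.02 ± 0.31 and Ifi44 at 0.41 ± 0.33 did not pass either. The Eed KO and Ezh2 KO crypts of run 440 also differed in H2-T22, at 51.6 CPM in the Eed KO library against 2.69 to 4.04 CPM, and the part of that difference in these values was not tested.

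In organoids, Eed KO libraries had more RNA of some interferon-inducible genes than WT libraries, and no immunoproteasome subunit was called. Nlrc5, Gbp7 and Cxcl10 rose, and none of the 10 fell, where 13.5% of the 12958 genes tested were called higher and 4.63% lower. The median log2 fold change was 1.33 over the 10 genes and 0.00 over all genes. Nlrc5, Gbp7, Cxcl10 and Ifi44 had fewer than 10 counts over both WT organoids and passed the filter on low counts through the Eed KO libraries. The 3 genes that rose are among these 4, and of the 6 others 0 rose. This count, the median and the adjusted p of these 4 genes are thus a description only. Immune markers were scarce in these cultures. Their sum was 9.25 and 6.92 CPM in Eed KO organoids, against 5.64 and 4.28 CPM in WT organoids, 10 to 14 of the 20 markers were at 0 in each library, and Cd3e, Cd8a and Ifng were at 0 in all 4.

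Cxcl10 had 111 and 111 counts in Eed KO organoids, against 1 and 1 in WT organoids. That is a ratio of 111 with an exact 95% counting interval of 30.4 to 922, which covers counting error only (fitted log2 fold change 6.62 ± 0.45, adjusted p = 0.000223). Art3, which encloses it, had 2 and 1 counts in Eed KO organoids, against 0 and 0 in WT organoids. Gbp7 had 67 and 130 counts in Eed KO organoids, against 2 and 2 in WT organoids (ratio 49.3, interval 18.9 to 183, adjusted p = 0.00125). For both genes, each Eed KO library was far above each WT library.

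Nlrc5 had 14 and 36 counts in Eed KO organoids, against 0 and 1 in WT organoids, a ratio of 50 with an interval of 8.57 to 2010 (adjusted p = 0.0117), and without WT organoid 385_1 its call was lost (adjusted p = 0.0547). Per length its level in Eed KO organoids, at 0.236 ± 0.148 RPKM (SD, n = 2), was the lowest of the 10 genes. Ifi44 had 52 and 619 counts in Eed KO organoids 385_1 and 385_2, against 1 and 1 in WT organoids, a ratio of 336 with an interval of 92.5 to 2780. The Eed KO libraries differed from each other by more than 10-fold, and the edgeR test of the 4 libraries did not call the gene (adjusted p = 0.135). Of 9 alternatives 5 called it, with adjusted p between 6.68e-10 with DESeq2 and 0.647 without WT organoid 385_1. The calls with either Eed KO library left out (adjusted p = 2.88e-06 without 385_1 and 0.00243 without 385_2) rest on the spread of the WT libraries, at 1 count each.

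The immunoproteasome subunits were low in all organoids. Psmb8 had 3.91 and 7.16 CPM in Eed KO organoids, against 3.68 and 1.03 CPM in WT organoids (log2 fold change 1.21 ± 0.59, adjusted p = 0.231). Psmb9 had 4.23 and 11.6 CPM in Eed KO organoids, against 9.85 and 11.8 CPM in WT organoids (-0.45 ± 0.46). Psmb10 had 29.9 and 34.1 CPM in Eed KO organoids, against 39.1 and 27.6 CPM in WT organoids (-0.06 ± 0.19), and Tap2 had 10.7 and 15.1 CPM, against 13.1 and 13.8 CPM (-0.06 ± 0.23). Values of the groups overlapped or nearly touched in all 4 genes. A single library decided some of these values, since Psmb8 was called higher without WT organoid 385_1 (2.40, adjusted p = 0.0345) and Psmb9 was called lower without Eed KO organoid 385_2 (-1.37, adjusted p = 0.0286). Tap1 did not overlap, with 27.0 and 66.1 CPM in Eed KO organoids, against 17.1 and 16.97 CPM in WT organoids, and its log2 fold change of 1.45 ± 0.47 (adjusted p = 0.12) passed with DESeq2 (adjusted p = 0.000819) and in the fit of all 13 libraries (adjusted p = 0.0369). Irf1 had 39.3 and 41.5 CPM in Eed KO organoids, against 33.9 and 24.2 CPM in WT organoids (0.47 ± 0.18, adjusted p = 0.128).

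Of 42 other interferon-stimulated genes tested in organoids, 10 rose and none fell, with a median log2 fold change of 2.84. Over all genes tested in organoids, 13.5% were called higher and 4.63% lower. From rounded values the median was 2.83. It stayed at 2.83 when the 1 interferon-stimulated gene at 0 in both WT organoids was bounded at 3 counts over the group. The other genes with few counts in WT organoids kept their fitted values, so the median is a description only. Ifit1 had 30.1 and 89.8 CPM in Eed KO organoids, against 1.65 and 1.03 CPM in WT organoids, and Rsad2 had 7.58 and 26.1 CPM, against 0.226 and 0.514 CPM. Eed KO organoid 385_2 was the higher library for both, as it was for Ifi44 and for Irf7 (21.1 and 150 CPM in Eed KO organoids, against 3.53 and 5.74 CPM in WT organoids). The count of higher interferon-stimulated genes was 41 of 44 tested without Eed KO organoid 385_1 and 21 of 42 without 385_2, where the lone Eed KO library is assumed to vary like the WT ones. Of these 42 genes, 13 had fewer than 10 counts over both WT organoids, 5 of the 10 that rose among them, and of the 29 others 5 rose. Only 5 GTPases passed the filter in organoids, against 14 in crypts, and WT organoids had a count for 3 and 4 of those 14. Gbp3 had 2.47 and 10.3 CPM in Eed KO organoids and was listed at 0 in both WT organoids. Of the 3 GTPases with 10 or more counts in WT organoids, 2 rose. Of the 20 class I and loading genes tested, H2-T22, H2-T23 and Tapbp rose and H2-T10 and H2-T3 fell (H2-T22, H2-T23, H2-T10 and Tapbp named after their values were seen), and H2-T22, H2-T23 and H2-T10 are among the genes in which the FVB-labelled cultures stood apart. Sex, strain and genotype cannot be told apart in these cultures.

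The Eed effect in crypts minus the Eed effect in organoids was negative and called for 7 of the 10 genes, where 2.99% of 14761 genes were called lower and 1.13% higher. Psmb8 differed by -3.01 ± 0.55 (adjusted p = 0.0145), Tap1 by -2.35 ± 0.51 (adjusted p = 0.029) and Irf1 by -1.76 ± 0.34 (adjusted p = 0.0191). These 3 genes fell in crypts and were not called in organoids. Gbp7 (-5.49 ± 0.97), Nlrc5 (-5.57 ± 1.18) and Cxcl10 (-4.83 ± 1.16) rose in organoids and were not called in crypts. Ifi44 (-6.17 ± 1.52, adjusted p = 0.0483) rose in crypts, and its fitted value in organoids was larger, in the same direction and not called (8.24 ± 2.41). The differences of these 4 genes rest on WT organoids with 0 to 2 counts a library, so their size depends on the fit's prior count. Psmb9 (-1.29 ± 0.45, adjusted p = 0.147), Psmb10 (-1.07 ± 0.27, adjusted p = 0.0505) and Tap2 (-0.52 ± 0.43) did not pass. The count of 7 was 4 when Eed KO crypt 385_1 or 385_2 was left out, 2 without WT crypt 385_2, Eed KO organoid 385_2 or WT organoid 385_1, and 1 without WT organoid 385_2.

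WT organoids carried less RNA of 9 of the 10 genes than WT crypts, where 18.9% of 14761 genes were called lower and 9.17% higher. Psmb8 averaged 2.36 ± 1.88 CPM in WT organoids (SD, n = 2) and 221 ± 152 CPM in WT crypts (SD, n = 3), a log2 fold change of -5.89 ± 0.47. Psmb10 averaged 33.4 ± 8.14 CPM in WT organoids and 151 ± 47.8 CPM in WT crypts (-1.79 ± 0.20). Nlrc5 had 1 count in the WT organoids together and 758 in the WT crypts, a ratio of 0.00203 with a counting interval of 5.14e-05 to 0.0114. Gbp7 (ratio 0.014, interval 0.0038 to 0.0361) and Ifi44 (0.0261, interval 0.00313 to 0.0964) also had few reads in WT organoids, the call of Ifi44 was lost without either WT organoid library (adjusted p = 0.106 and 0.0833), and Cxcl10, with 2 counts against 17, was not called. Immune markers were also lower in WT organoids, 19 of 20 by the test. Ddx3y was at 0.0752 and 0 CPM in WT organoids, against 35.6, 57.5 and 0 CPM in WT crypts. Culture, strain, sex, length of induction and the immune cells around crypts differ together in this comparison and cannot be told apart.

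Per length, Psmb10 had the highest mean level of the 10 genes in all 5 groups. In WT crypts it was 88.8 ± 28.1 RPKM (SD, n = 3), followed by Psmb8 at 65.4 ± 44.9, Irf1 at 52.2 ± 6.62, Psmb9 at 39.9 ± 34.8, Tap1 at 33.2 ± 25.9 and Tap2 at 23.1 ± 22.99 RPKM. Neighbours in this order did not differ beyond their SD. Nlrc5 at 2.17 ± 1.18 and Gbp7 at 2.09 ± 0.876 RPKM were far below them, and Ifi44 at 0.517 ± 0.108 and Cxcl10 at 0.198 ± 0.124 RPKM were lowest. In Eed KO crypts Psmb10 led at 44.0 ± 26.9 RPKM, and Irf1 at 23.6 ± 13.9 stood above Psmb8 at 17.3 ± 7.96 RPKM. In Eed KO organoids Cxcl10 at 3.95 ± 0.0264 RPKM was above Psmb8 at 1.64 ± 0.681 RPKM, whereas in WT organoids it was 0.0357 ± 0.0033 RPKM and below Psmb8 at 0.697 ± 0.556 RPKM.

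Across the 13 libraries, the 5 genes whose log2 CPM was most like that of Psmb8, among 14751 others, were H2-Ab1 (Pearson r = 0.972), AW112010 (0.972), Ciita (0.971), Dmap1 (0.971) and Rab19 (0.970). Those most like Ifi44 were Oas2 (0.981), Trim30a (0.977), Slfn5 (0.970), Rtp4 (0.968) and Xaf1 (0.954). These values describe libraries that share runs and the large step between crypts and organoids. Among the 10 genes themselves, r with Psmb8 was 0.97 for Irf1, 0.95 for Psmb10 and 0.93 for Psmb9, and it was 0.44 for Ifi44 and -0.07 for Cxcl10.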

How the data were processed

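RNA-seq of mouse small intestinal crypts and organoids was analysed from 13 libraries in 5 groups. The authors deposited 1 table a sequencing run, with Ensembl identifiers and positions per the file headers, and the deposited values are whole numbers whose totals differ between libraries, taken as unnormalized counts. Per the labels' protocols, villi were scraped off, crypts were freed with EDTA, and a strand-specific TruSeq kit made the libraries from TRIzol-extracted RNA. The build GRCm38 and the tools TopHat2 2.0.12, Bowtie 0.12.9, HTSeq and DESeq2 are named, with no role for each, in the submitters' processing notes. No source used here says if strand was used in counting. Reads mapping to near-identical class I genes may have been split or dropped by that counting, so H2 values are uncertain.

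The 10 genes and all gene lists were chosen with earlier results on these libraries known. Counts were fitted with edgeR 4.0.16 in R 4.3.3 (quasi-likelihood F test, TMM, robust dispersion, a filter by group at a minimum count of 10 and total of 15) and adjusted by Benjamini and Hochberg over all genes tested, with a threshold of 0.05. The 9 crypt libraries formed 1 fit, the 4 organoid libraries another, and all 13 served for comparisons of crypts with organoids; fits with crypts had run as a term. CPM and RPKM used the TMM factors of the fit of 13 and exon unions of GENCODE mouse release 21; the SE is the log2 fold change divided by the root of F. Besides the 10 genes, the text names from each list at most 4 higher and 4 lower genes with the largest change among those called in Eed KO against WT crypts, a set of reference genes, and the genes most like Psmb8 and Ifi44; others are said to be chosen after their values were seen or are named for their counts in organoids, likewise afterwards. The procedure was also run on simulated counts that had no run effect and changes only in well-counted genes. That simulation covers neither the run term nor genes with few counts. Promoters are from RefSeq. Some genes that this rule names are not reported here.

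Same-numbered Eed KO and WT crypts deviated together from their group means, with correlations of 0.166, 0.360 and 0.329, which include the shared run (0.145 within run 385 alone; 0.35 and 0.01 for the pairs of different number in that run), so a fit with number as a block was made and is given where it changes a call. Alternatives were DESeq2 1.42.0, its size factors, no filter, each library left out, each run alone and other sets of libraries. No pair of libraries of a group agreed within sampling noise. Total counts per library were 11421666 to 18300644, and intervals on ratios cover counting error only.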

Additional observations from a re-analysis of the deposited data

Results flagged for a closer look

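For 7 of the 10 genes the Eed effect in crypts differed from that in organoids by an interaction test across all 13 libraries. Of these, Nlrc5, Gbp7, Cxcl10 and Ifi44 had 0 to 2 counts in each WT organoid library, so the size of their differences depends on the fit's prior count. The difference, crypts minus organoids, was -3.01 for Psmb8, -2.35 for Tap1, -5.57 for Nlrc5, -5.49 for Gbp7, -1.76 for Irf1, -4.83 for Cxcl10 and -6.17 for Ifi44 on the log2 scale. Over 16 alternatives the sign held for each, and the adjusted p ranged up to 0.0629 for Psmb8, 0.134 for Tap1, 0.16 for Nlrc5, 0.0888 for Gbp7, 0.1 for Irf1, 0.193 for Cxcl10 and 0.213 for Ifi44. The call of Psmb8 was lost in 1 of the 16, without Eed KO organoid 385_2, and that of Ifi44 in 13 of them. The strain and sex of the organoid groups differ with genotype, Ddx3y also differs between the Eed KO and WT crypts of run 385, in the opposite direction, and the part of strain and sex in these differences was not tested.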

How the results depend on the processing

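Of 837 values of the 10 genes under alternatives, 731 kept their direction and side of the threshold, 63 lost a call, 21 gained one and 22 changed sign. Psmb8, Psmb9 and Ifi44 kept their calls in Eed KO against WT crypts under all 17 alternatives. There, 3 of the 10 genes instead of 5 were lower with the replicate block and 3 within run 440, and 2 instead of 1 were higher in the fit of 13 libraries. The genes called there in either direction were 1589 with the block, 1274 within run 440 and 2140 to 4145 with a library left out, against 3463. In crypts the pairing changed the calls of Tap1 and Irf1 and of no other gene of the 10. In organoids, where 2 shared numbers (same-number correlation 0.259) only name libraries, the block called 5 of the 10 genes higher and 3902 genes in all, against 3 and 2352. Also there, 5 were higher with DESeq2, 5 in the fit of 13 libraries and 3 to 5 with a library left out, with 0 to 1 lower and 1339 to 2268 genes in all. For Ezh2 KO against WT crypts, 3 genes were called, against 8 with no filter, 70 with DESeq2 and 1 to 513 with a library left out. The 513 were without WT crypt 440_1, where the run term rests on the Eed KO crypts alone. Of the 10 genes, DESeq2 called 1 higher in this comparison, and 0 to 1 were lower with a library left out. For Eed KO against Ezh2 KO crypts, 1816 to 4193 genes were called with a library left out, against 2886. For the Eed effect in crypts minus that in organoids, 1 to 7 of the 10 genes and 152 to 1284 genes in all were called with a library left out, against 608, and 1197 with DESeq2. For WT organoids against WT crypts, 2084 to 4397 genes were called, against 4142. The 22 changes of sign were of log2 fold changes that had not passed the test. With a library left out, Nlrc5 went over -0.55 to 0.08 and Gbp7 over -0.41 to 0.64 (-1.10 within run 440) in Eed KO against WT crypts. For Ezh2 KO against WT crypts, Psmb8 spanned -0.27 to 0.22, Psmb9 -0.40 to 0.04, Tap2 -0.78 to 0.46, Gbp7 -0.06 to 1.76 (-0.06 within run 440) and Cxcl10 -0.32 to 1.19. For Eed KO against Ezh2 KO crypts, Tap1 spanned -0.15 to 0.19, Tap2 -0.61 to 0.57, Gbp7 -1.12 to 0.62 and Cxcl10 -0.05 to 1.69. In organoids, Psmb9 spanned -1.37 to 0.11, Psmb10 -0.28 to 0.20 and Tap2 -0.34 to 0.17. The cause was not tested. Where a group kept 1 library, it is assumed to vary like the other groups. List counts by run, block and library were added after seeing the data. Depth limits Cxcl10 in crypts, at 2 to 48 counts a library, and Nlrc5, Gbp7, Cxcl10 and Ifi44 in WT organoids, at 0 to 2.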
